A study of Mus musculus with 18 samples.

Results

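The comparison set the small intestine of irradiated, high-fat-fed female mice against that of unirradiated female control mice, over all genes expressed there. Its members were the genes with at least 1 FPKM, a fragment count scaled to transcript length and library size, in at least 3 of the 18 libraries of the series, which gave 11767 of 21928 gene symbols. The treated group was wild-type C57BL/6 female mice given total abdominal irradiation (TAI) combined with a high-fat diet (HFD), and the control group was wild-type C57BL/6 female mice without irradiation, with 3 libraries in each. They are called HFD and control libraries here, and values are listed in the order of replicates 1, 2 and 3. The other 12 libraries came from wild-type C57BL/6 mice too, from females given TAI alone and from male control, TAI and simvastatin-treated TAI groups, and they shared the estimate of the spread. The libraries of females given TAI alone were used for side values. No unirradiated HFD-fed group was analysed here, so that in this comparison the irradiation and the diet cannot be told apart. The labels do not say whether each library came from a separate mouse, so that the p-values measure the spread between these samples, which may be technical.

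The epithelium of the small intestine takes up dietary fat as fatty acids and monoglycerides, rebuilds triglyceride and exports it in chylomicrons, while part of the fat is kept in lipid droplets or oxidised. Fatty acids act on nuclear receptors of the PPAR family, of which PPARα drives genes of mitochondrial and peroxisomal fatty acid oxidation and of ketone body synthesis. Abdominal irradiation kills dividing crypt cells, from which stem cells rebuild the absorptive, Paneth, goblet and enteroendocrine cells over the following weeks. In a whole-tissue library, fewer cells of a type and less RNA per cell cannot be told apart.

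A linear model fitted with limma to log2(FPKM + 1) placed 343 genes (2.91% of the genes tested) higher and 197 (1.67%) lower in the HFD libraries at an adjusted p below 0.05. The scale of log2(FPKM + 1) understates the change of genes with low values. Among the 540 genes past the threshold (4.59% of the genes tested), 63 higher and 17 lower genes differed by a log2 fold change of at least 1. In 539 of the 540 the 3 HFD and the 3 control libraries did not overlap, which selection by a small p brings about, so that it adds no support. Of all genes tested, 29.2% had all HFD libraries above and 10.8% below all control libraries. Leaving out each of the 6 libraries in turn, 94 higher and 55 lower genes passed in all 6 fits, and 93 of the 540 passed in none. The median log2 fold change of all genes tested was 0.10, and it moved to −0.02 after quantile normalization and to 0.01 after median ratio scaling. The split moved with it, to 327 higher and 542 lower genes after quantile normalization and to 303 higher and 357 lower genes after median ratio scaling. All 540 genes kept their direction after quantile normalization, and 435 of them, 240 higher and 195 lower, stayed past the threshold. The plot of all genes shows that the lowest adjusted p-values and the changes of more than 3 on the log2 scale lay on both sides of 0.

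**Figure D1:**
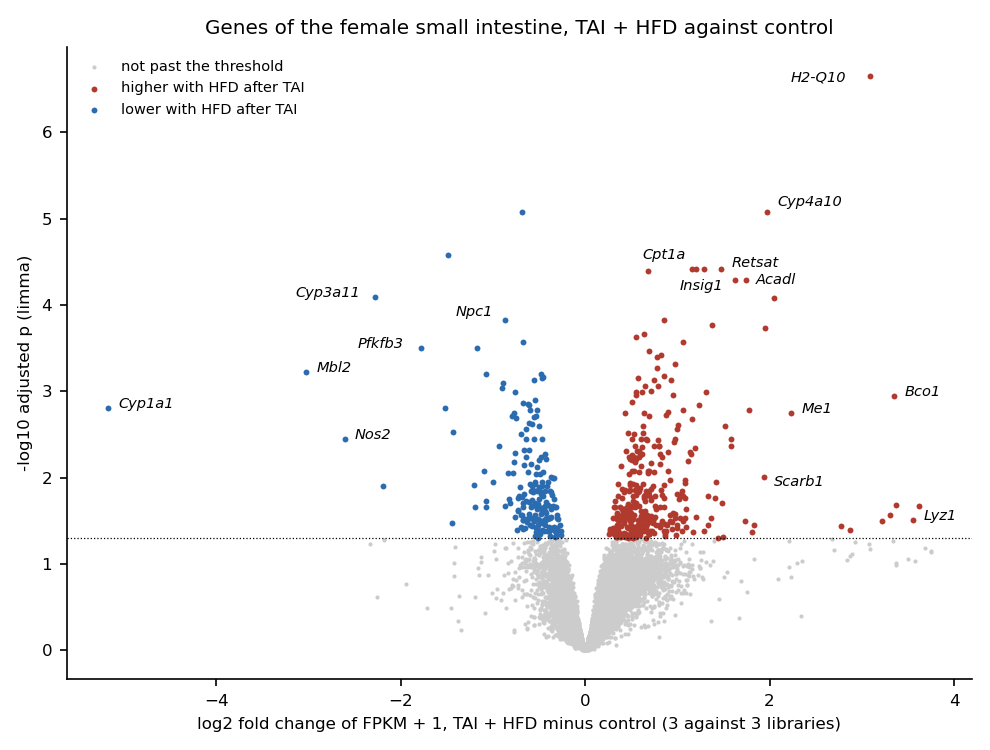
Change of every gene tested in the HFD libraries against the control libraries (log2 fold change, horizontal axis) and its adjusted p (as −log10, vertical axis), with the threshold as a dotted line. Each point is a gene, red where higher past the threshold (343 genes), blue where lower (197 genes) and grey otherwise, and H2-Q10 has the lowest adjusted p and Cyp1a1 the largest decrease.

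The 6 libraries had the profile of small intestine and of females. Villin (Vil1), the brush border actin-bundling protein, lay between 929.6 and 1083 FPKM, and the fatty acid binding protein Fabp2 between 5328 and 8126 FPKM. The pancreatic enzymes Cpa1, Cela2a and Pnlip and the gastric gene Gkn1 were listed at 0 in all 6. The colonic gene Car1 reached at most 0.145 FPKM and Aqp8 1.64 FPKM, but Slc26a3, a colon marker as well, lay between 64.6 and 69.3 FPKM. The liver gene Alb reached 0.184 FPKM in control and 1.66 FPKM in HFD libraries, and Ttr 0.167 and 0.667 FPKM. Y-linked genes reached at most 0.0183 FPKM here, and every male library had 5.47 FPKM or more of each. Read totals are unknown here. A rough depth relative to control replicate 1, taken from the most common ratio of low values, lay between 0.901 and 1.08 in the other 5 of these libraries, and 6.97% to 8.85% of the low genes of a library shared that ratio. On the first principal component of all 18 libraries, which held 35.6% of the variance, the control libraries lay at −20.5, −3.53 and −29.0 and the HFD libraries at 10.3, 24.4 and 13.2. Replicate 3 of the females given TAI alone stood apart at 43.8. Relative to the control mean of log2(FPKM + 1), distal small intestine genes had median levels of −0.18, 0.13 and 0.55 after TAI alone. Proximal small intestine genes had 0.57, −0.02 and −0.70 there. Whether replicate 3 came from another gut region was not tested, and the side values after TAI alone include this library.

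Genes of mitochondrial fatty acid oxidation were higher in the HFD libraries. Of 22 genes of this list, 14 rose past the threshold, none fell and 8 did not pass, against 2.91% of all genes tested that rose. Their median log2 fold change was 0.49, and 18 of the 22 had all HFD libraries above all control libraries, which was so for 29.2% of all genes. After quantile normalization 11 of the 22 rose and after median ratio scaling 10. Carnitine palmitoyltransferase 1A (Cpt1a), the rate-limiting step of fatty acid entry into mitochondria, was at 18.1, 18.2 and 16.7 FPKM in the control libraries and at 43.8, 40.2 and 38.3 FPKM in the HFD libraries, with no overlap (log2 fold change 1.16 ± 0.11, adjusted p = 3.83e-05, where ± gives the standard error). The very long chain acyl-CoA dehydrogenase Acadvl, which starts the oxidation spiral, was at 56.5, 54.5 and 55.7 FPKM in the control libraries and at 92.7, 90.6 and 85.8 FPKM in the HFD libraries (log2 fold change 0.68 ± 0.07, adjusted p = 4.05e-05). Its long chain relative Acadl had the largest change of the list and separated the groups widely. Its values were 31.6, 49.2 and 32.8 FPKM in control and 123, 136 and 121 FPKM in HFD libraries (log2 fold change 1.74 ± 0.18, adjusted p = 5.12e-05).

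Later steps of the spiral and electron carriers rose as well. The trifunctional protein subunit Hadha, which hydrates and oxidises long chains, was at 67.7, 69.9 and 67.8 FPKM in control and 104, 102 and 97.2 FPKM in HFD libraries (log2 fold change 0.56 ± 0.07, adjusted p = 0.000236). Its partner subunit Hadhb was at 56.7, 52.9 and 51 and 75.6, 75.3 and 74.2 FPKM (log2 fold change 0.48 ± 0.09, adjusted p = 0.00914). Etfb, which passes electrons from the dehydrogenases to the respiratory chain, was at 65.6, 68.6 and 66.7 and 110.0, 117 and 101 FPKM (log2 fold change 0.69 ± 0.09, adjusted p = 0.000337), and the short chain dehydrogenase Acads had a log2 fold change of 0.51 (adjusted p = 0.00352). These 7 genes, Cpt1a, Acadvl, Acadl, Hadha, Hadhb, Etfb and Acads, passed in all 6 fits that left out 1 library. The carnitine carrier Slc25a20 had a log2 fold change of 0.68 (adjusted p = 0.00827), and its call was lost without HFD replicate 1 (adjusted p = 0.0512). Acot2, Eci1, Eci2, Etfdh, Etfa and Acaa2 made up the rest of the 14. Their calls were lost, for Acot2, without HFD replicate 1 and control replicates 1 and 3 (adjusted p = 0.0731, 0.0521 and 0.0678), for Eci1 without HFD replicates 1 and 2 and control replicate 3 (adjusted p = 0.0597, 0.0847 and 0.0633) and for Eci2 without HFD replicate 2 and control replicates 1 and 3 (adjusted p = 0.0975, 0.0929 and 0.0514). Etfdh was lost without HFD replicates 1, 2 and 3 and control replicates 2 and 3 (adjusted p from 0.0564 to 0.0748), Etfa without each of the 6 libraries in turn (adjusted p from 0.0591 to 0.114) and Acaa2 without each of the 6 libraries in turn (adjusted p from 0.062 to 0.156). The medium chain dehydrogenase Acadm, at 59.5, 55.2 and 57.2 FPKM in control and 64.5, 62.6 and 60.8 FPKM in HFD libraries, and the PPAR target Pdk4, at 12.3, 22.4 and 10.2 and 31.1, 18.9 and 16.5 FPKM, did not pass (adjusted p = 0.269 and 0.247).

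The same list was set beside the libraries of females given TAI alone, which are shared by the next comparisons. In TAI alone against control, the list had a median of 0.01 (all genes 0.12), and Cpt1a was at 21.9, 26.1 and 30.7 FPKM, between the other groups (log2 fold change 0.53, adjusted p = 0.0462). Acadl was at 48, 52.8 and 37 FPKM after TAI alone, overlapping control (log2 fold change 0.29, adjusted p = 0.388). In HFD after TAI against TAI alone, 13 of the 22 rose and none fell, against 1.74% of all genes that rose, and the median was 0.49 (all genes −0.01). Cpt1a rose there by a smaller amount than against control (log2 fold change 0.63, adjusted p = 0.00528), and Acadl had log2 fold change 1.46, adjusted p = 0.000357. The female control libraries do not enter this last comparison, but the HFD libraries do.

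Peroxisomal fatty acid oxidation, which shortens very long and branched chains, showed fewer calls. Of 24 listed genes, 21 were tested, 5 rose and none fell, against 2.91% of all genes that rose, with a median of 0.27 (all genes 0.10). After quantile normalization 3 rose and after median ratio scaling 2. Ech1, an enoyl-CoA isomerase, was at 55.6, 55.5 and 53.6 FPKM in control and 89.1, 90.1 and 79.2 FPKM in HFD libraries (log2 fold change 0.64 ± 0.08, adjusted p = 0.000219). Hsd17b4, the D-bifunctional protein, was at 96.3, 88.1 and 91.3 and 134, 138 and 133 FPKM, all HFD libraries lying above (log2 fold change 0.55 ± 0.08, adjusted p = 0.00111). Both passed in all 6 fits that left out 1 library. The very long chain acyl-CoA synthetase Slc27a2, the thiolase Acaa1b and the thioesterase Acot4 rose by log2 fold changes of 0.66, 1.03 and 0.47 (adjusted p = 0.0143, 0.0295 and 0.0261). The call of Slc27a2 was lost without HFD replicates 1 and 2 and control replicate 2 (adjusted p = 0.0706, 0.0508 and 0.0528), that of Acaa1b without HFD replicates 1, 2 and 3 and control replicates 1 and 2 (adjusted p from 0.057 to 0.115) and that of Acot4 without HFD replicates 1, 2 and 3 and control replicates 1 and 3 (adjusted p from 0.0525 to 0.113). The bifunctional enzyme Ehhadh did not pass (log2 fold change −0.04, adjusted p = 0.886). The branched-chain oxidase Acox2, which belongs to bile acid synthesis as well and was chosen after its values were seen, was at 3.37, 4.2 and 2.77 and 10.6, 11.8 and 9.15 FPKM (log2 fold change 1.38 ± 0.16, adjusted p = 0.000171).

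Cyp4a10 and Acot1, which are known PPARα targets, rose from low control values. Cyp4a10, which hydroxylates the far end of fatty acids, was at 0.164, 0.152 and 0.213 FPKM in control, 0.316, 0.362 and 0 FPKM after TAI alone and 2.9, 4.94 and 3.26 FPKM in HFD libraries (log2 fold change 1.97 ± 0.16, adjusted p = 8.36e-06). The cytosolic thioesterase Acot1, chosen after its values were seen, was at 0.249, 0.596 and 0.107 and 3.39, 3.69 and 2.14 FPKM (log2 fold change 1.62 ± 0.16, adjusted p = 5.12e-05). Both are members of families with near-identical copies, and how the authors' counting split reads between copies is not known. Among the female libraries only the HFD libraries reached the 1 FPKM of the filter for Cyp4a10. Its place in the test may thus rest on the group where it was high. The control values of Acot1 lay under that limit too. Of the 6 genes of ketone body synthesis and use described here, the thiolase Acat1 rose (2.91% of all genes did) and none fell. Acat1 was at 32.5, 30.1 and 30.5 and 48, 47.3 and 49.5 FPKM (log2 fold change 0.62 ± 0.11, adjusted p = 0.00538). Oxct1, which uses ketone bodies, was at 23.2, 24.9 and 25.2 and 24.7, 19.96 and 23.6 FPKM and did not pass (adjusted p = 0.612).

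**Figure D2:**
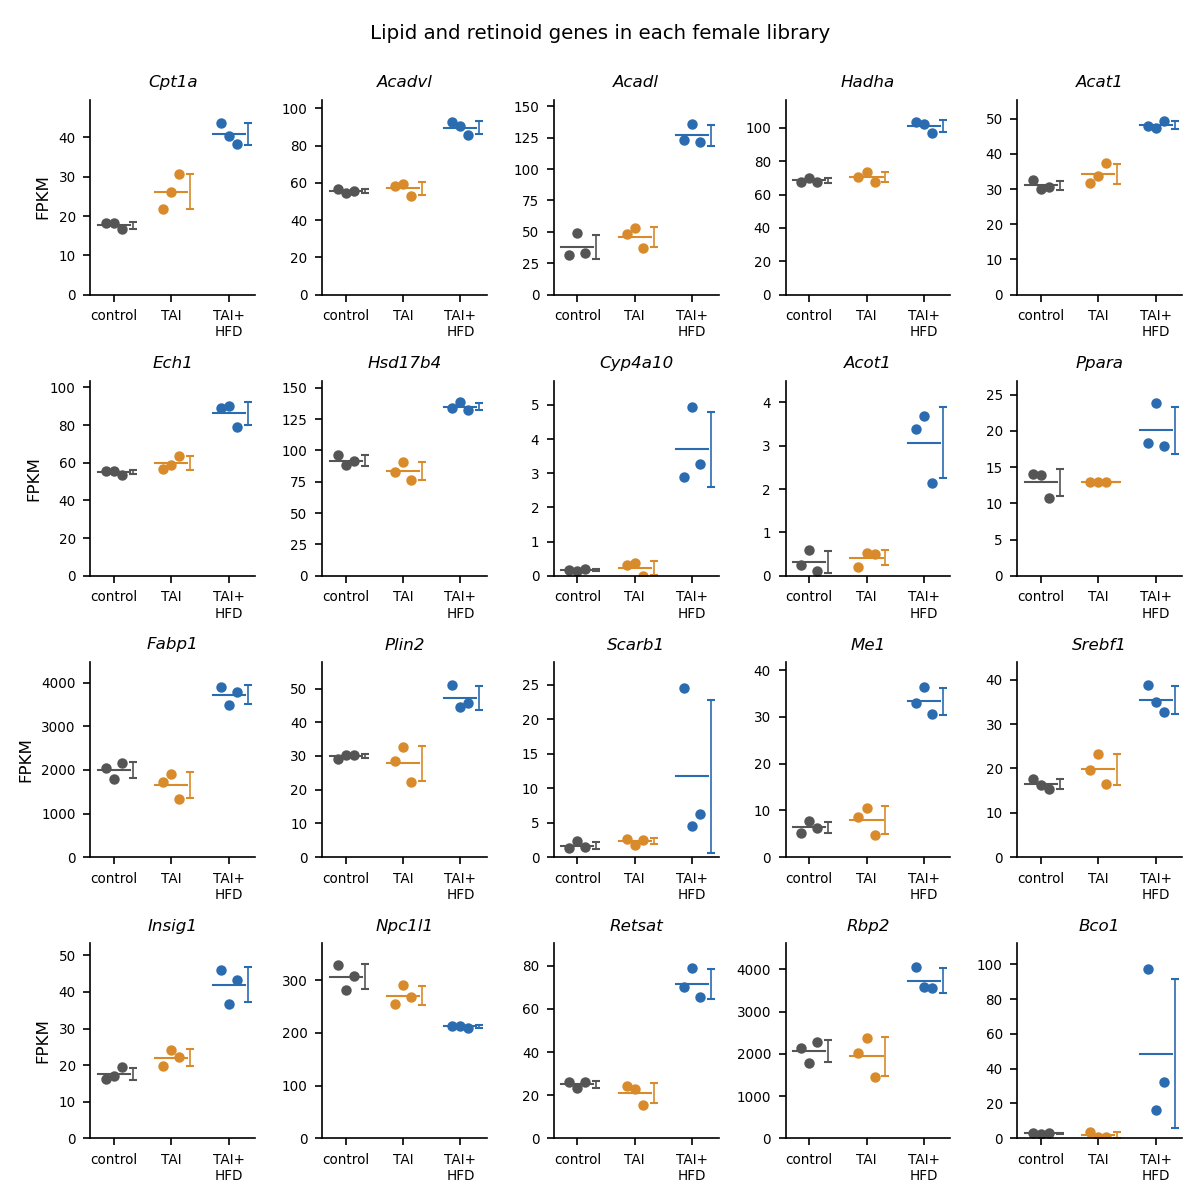
FPKM of 20 genes of lipid and retinoid handling in each library of female control mice, females given TAI alone and females given TAI and HFD (points), with the mean of 3 libraries as a line and its SD as an error bar, each panel on its own axis from 0. The HFD libraries lie above both other groups in most panels, Npc1l1 is lower, and HFD replicate 1 is the highest for Scarb1 (24.6 FPKM) and Bco1 (97.0 FPKM).

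Among 14 nuclear receptors and factors that sense lipids, 2 rose and none fell, against 2.91% of all genes that rose. Ppara itself was at 14.1, 13.9 and 10.7 FPKM in control and 18.4, 23.8 and 18 FPKM in HFD libraries (log2 fold change 0.60 ± 0.16, adjusted p = 0.046). Its call was lost without each of the 6 libraries in turn (adjusted p from 0.0593 to 0.217). Nr0b2, the small heterodimer partner that dampens bile acid synthesis, was at 0.236, 0.521 and 0.349 FPKM in control and 1.69, 1.39 and 1.1 FPKM in HFD libraries (log2 fold change 0.81 ± 0.14, adjusted p = 0.00431). It passed in all 6 fits that left out 1 library. Its control values were low, and its call was lost with 0.1 instead of 1 added to FPKM (adjusted p = 0.066). With the 9 female libraries it was lost too (adjusted p = 0.053). Creb3l3, an intestinal and hepatic factor for triglyceride genes, was at 174, 145 and 169 and 252, 225 and 227 FPKM and did not pass against control (log2 fold change 0.53, adjusted p = 0.0628). Ppard, the family member most abundant in crypts, had a log2 fold change of −0.20 (adjusted p = 0.21), and Pparg one of 0.31 (adjusted p = 0.141).

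For 22 genes past the threshold in 5 lists, those of mitochondrial and peroxisomal fatty acid oxidation, ketone body synthesis, the core clock and its output, the promoter from 250 bases before to 50 bases after the gene start was searched on both strands where RefSeq held one, which was so for 19. The motifs were the direct repeat 1 bound by PPAR and RXR pairs (2 copies of AGGTCA spaced by 1 base), the E-box CACGTG, the D-box TTATGNAA and the ROR element. Only Acot4 and Cry1 held a match, an E-box each. Among the other genes that rose, Bco1 held a direct repeat 1, and it was looked at after its values were seen. This motif was in 13 of 32851 promoters (0.0396%) and the E-box in 7.15% of them. Among promoters of genes tested the shares were 0.0426% and 9.7%. A match is a run of letters, and binding was not measured.

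The Bco1 promoter is shown because its gene had the largest rise past the threshold outside the Paneth cell genes (RefSeq, GRCm38.p6, chr8:117095615-117095914, plus strand). The capitals mark the direct repeat 1, read on the opposite strand, 56 bases before the start.
Bco1: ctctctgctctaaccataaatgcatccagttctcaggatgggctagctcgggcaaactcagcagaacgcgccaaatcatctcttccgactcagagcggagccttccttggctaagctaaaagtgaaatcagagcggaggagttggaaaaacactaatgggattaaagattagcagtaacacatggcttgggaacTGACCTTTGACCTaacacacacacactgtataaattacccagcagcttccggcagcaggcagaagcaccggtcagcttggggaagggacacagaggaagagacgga

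Bco1 cleaves β-carotene into retinal, the source of vitamin A from plants. It was at 3.04, 2.28 and 3.13 FPKM in control, 3.61, 0.822 and 0.801 FPKM after TAI alone and 97, 16.5 and 32.6 FPKM in HFD libraries. The HFD libraries did not overlap with control but spread widely among themselves, and replicate 1 was the highest (log2 fold change 3.35 ± 0.49, adjusted p = 0.00112). The scavenger receptor Scarb1, which takes up carotenoids and cholesterol, had its highest value in the same library, with 1.26, 2.27 and 1.46 FPKM in control and 24.6, 4.46 and 6.28 FPKM in HFD libraries (log2 fold change 1.93 ± 0.38, adjusted p = 0.0099). Both passed in all 6 fits, Scarb1 with an adjusted p of up to 0.0481. Isx, the homeobox factor known to repress both genes, was chosen after its values were seen and lay lower without passing. It was at 44.4, 71.3 and 46.6 FPKM in control and 27.1, 42.5 and 33.6 FPKM in HFD libraries, with its lowest value in HFD replicate 1 (log2 fold change −0.63, adjusted p = 0.101).

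Of 14 retinoid genes tested, 3 rose and none fell (median 0.17), against 2.91% of all genes that rose. Besides Bco1, these were Retsat and Rbp2. Retsat, which saturates retinol, was at 26, 23.2 and 26.1 FPKM in control and 70.3, 79.1 and 65.4 FPKM in HFD libraries (log2 fold change 1.47 ± 0.14, adjusted p = 3.83e-05). The abundant retinol carrier Rbp2 was at 2134, 1778 and 2290.4 FPKM in control and 4067, 3577 and 3551 FPKM in HFD libraries (log2 fold change 0.86 ± 0.18, adjusted p = 0.0121), and its call was lost without HFD replicate 1 (adjusted p = 0.0621). Lrat, which esterifies retinol for chylomicrons, had values of 8.7, 7.0 and 9.0 and 6.92, 4.39 and 5.77 FPKM and did not pass (adjusted p = 0.102). After quantile normalization 1 gene of the list, Isx, was lower past the threshold as well.

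Fatty acid uptake and storage genes rose in part. Of 22 listed genes, 18 were tested, 4 rose (2.91% of all genes did), none fell and the median was 0.24. The 4 were Fabp1, Plin2, Acsl3 and Scarb1, and all passed in every fit that left out 1 library. The liver-type fatty acid binding protein Fabp1 was at 2053, 1798 and 2158 FPKM in control, 1715, 1905 and 1334 FPKM after TAI alone and 3897, 3489 and 3798 FPKM in HFD libraries (log2 fold change 0.90 ± 0.16, adjusted p = 0.00501). The lipid droplet coat protein Plin2 was at 29.2, 30.4 and 30.4 and 51.2, 44.4 and 45.7 FPKM (log2 fold change 0.63 ± 0.10, adjusted p = 0.00249). Acsl3, which activates fatty acids at droplets, was at 15.1, 13.9 and 12.8 and 23.6, 18.4 and 23.8 FPKM (log2 fold change 0.61 ± 0.12, adjusted p = 0.00733). The transporter Cd36 was at 35.8, 34.6 and 44.8 and 38.7, 59.6 and 59.2 FPKM, with overlapping groups (adjusted p = 0.232), and Slc27a4 had a log2 fold change of −0.10 (adjusted p = 0.682).

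Genes of triglyceride synthesis and chylomicron assembly were not called. None of the 20 passed in either direction at the main threshold, and their median of 0.07 lay near that of all genes; 5 of the 20 had all HFD libraries above all control libraries, against 29.2% of all genes. After quantile normalization 2 rose. The lipase activator Apoc2 was at 769, 697 and 784 FPKM in control and 1953, 1617 and 1487 FPKM in HFD libraries, with no overlap, and missed the threshold (log2 fold change 1.16, adjusted p = 0.0592). The chylomicron protein Apoa4 was at 5576, 5101 and 5357 and 9495, 8378 and 7778 FPKM (log2 fold change 0.67, adjusted p = 0.0787). Against TAI alone both rose (Apoc2: log2 fold change 2.13, adjusted p = 0.00195; Apoa4: log2 fold change 1.18, adjusted p = 0.00509), and Apoc2 was at 744, 187 and 398 FPKM and Apoa4 at 4899.7, 4367 and 2502 FPKM in those libraries. Apoa1 went the other way without passing, from 8774, 8698 and 8861 to 7614, 7469 and 6871 FPKM (log2 fold change −0.26, adjusted p = 0.177).

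Some genes of sterol synthesis rose. Of 22 genes of cholesterol synthesis and the SREBP2 pathway, 4 rose (2.91% of all genes did), none fell and the median was 0.33. Insig1, which holds SREBP in the endoplasmic reticulum, was at 16.2, 17.1 and 19.4 FPKM in control and 46.1, 36.6 and 43.4 FPKM in HFD libraries (log2 fold change 1.21 ± 0.11, adjusted p = 3.83e-05). The farnesyl diphosphate synthase Fdps was at 8.89, 10.8 and 7.45 and 18.6, 20.5 and 16.6 FPKM (log2 fold change 0.97 ± 0.17, adjusted p = 0.00382). Both passed in all 6 fits. Srebf2 and the demethylase Cyp51 rose by log2 fold changes of 0.57 and 0.62 (adjusted p = 0.0308 and 0.0391), and their calls were lost, for Srebf2, without HFD replicates 1, 2 and 3 and control replicates 1 and 3 (adjusted p from 0.0599 to 0.144) and, for Cyp51, without HFD replicates 1, 2 and 3 and control replicates 1 and 3 (adjusted p from 0.088 to 0.151).

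Fdps was also high after TAI alone, at 11.3, 13.8 and 17.3 FPKM, and against TAI alone it did not pass (adjusted p = 0.287). Insig1 did (log2 fold change 0.90, adjusted p = 0.000481). Among the 10 genes of sterol absorption and efflux, 2 fell and none rose, against 1.67% of all genes that fell. Npc1l1, the apical sterol importer, was at 329, 281 and 308 FPKM in control and 213, 214 and 209.6 FPKM in HFD libraries (log2 fold change −0.52 ± 0.08, adjusted p = 0.00164). The lysosomal cholesterol exporter Npc1 was at 19.2, 18.6 and 16.2 and 9.26, 9.61 and 9.36 FPKM (log2 fold change −0.86 ± 0.10, adjusted p = 0.00015). Both passed in all 6 fits. The efflux pump Abca1 overlapped between groups, with 17.3, 17.1 and 17.1 and 12.5, 18 and 15 FPKM (adjusted p = 0.555).

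Of 17 genes of fatty acid synthesis and desaturation, 4 rose (2.91% of all genes did) and none fell, but its best known genes did not move together. Srebf1, which encodes the lipogenic factor SREBP1, was at 17.7, 16.2 and 15.4 FPKM in control and 38.9, 35 and 32.6 FPKM in HFD libraries (log2 fold change 1.06 ± 0.13, adjusted p = 0.00027). The malic enzyme Me1, which supplies NADPH for lipogenesis and is a PPARα target as well, was at 5.17, 7.66 and 6.17 and 33, 36.4 and 30.6 FPKM (log2 fold change 2.24 ± 0.35, adjusted p = 0.00176). The elongase Elovl6 was at 14.7, 17.9 and 15 and 23.7, 23.9 and 25.2 FPKM (log2 fold change 0.59, adjusted p = 0.00863). These 3 passed in all 6 fits, and the elongase Elovl7 (log2 fold change 0.41, adjusted p = 0.023) was lost without HFD replicates 1, 2 and 3 and control replicates 1 and 3 (adjusted p from 0.0542 to 0.102). Fatty acid synthase (Fasn) was at 5.65, 17.6 and 12.8 FPKM in control and 7.15, 8.84 and 7.3 FPKM in HFD libraries (adjusted p = 0.409), and the desaturase Scd1, named after its values were seen, at 9.07, 44.3 and 36.5 and 8.26, 10.4 and 8.37 FPKM (adjusted p = 0.236).

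Adipocyte markers varied between the same libraries. The 7 tested of 8 adipocyte markers, which summed to 24.6 to 143 FPKM in control and 13.8 to 18.1 FPKM in HFD libraries, had a median log2 fold change of −1.12. None passed at the main threshold, and 5 of the 7 had all HFD libraries below all control libraries, against 10.8% of all genes. After quantile normalization 3 fell, where 542 of all 11767 genes fell. Adiponectin (Adipoq) was at 1.05, 7.64 and 3.34 FPKM in control and 0.782, 0.431 and 0.576 FPKM in HFD libraries, and leptin (Lep), which was not tested, at 0.0136, 0.0607 and 0.17 and 0, 0 and 0 FPKM. Control replicate 2 had the highest and control replicate 1 the lowest control value of Adipoq, Scd1 and Fasn. Lipogenic genes are expressed in adipocytes, and the part of adipocytes in the values of Scd1, Fasn and the other genes of that list was not tested.

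Genes for detoxification enzymes moved in both directions. Of 24 cytochrome P450 genes and xenobiotic receptors tested, 4 rose and 4 fell, with a median of −0.26. Of all genes 2.91% rose and 1.67% fell. Cyp1a1, which is induced through the aryl hydrocarbon receptor, had the largest decrease of all genes. It was at 106, 161 and 76.1 FPKM in control, 87, 62.6 and 11 FPKM after TAI alone and 3.65, 1.16 and 1.82 FPKM in HFD libraries, with no overlap between HFD and the other groups (log2 fold change −5.18 ± 0.79, adjusted p = 0.00155). Tiparp, another target of the same receptor and chosen after its values were seen, was at 18.5, 17.9 and 18 and 11.5, 10.8 and 12.9 FPKM (log2 fold change −0.59 ± 0.11, adjusted p = 0.00693). The receptor gene Ahr was at 5.27, 5.32 and 5.16 and 5.72, 5.32 and 5.28 FPKM and did not pass (log2 fold change 0.04, adjusted p = 0.798).

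Cyp3a11, the main drug-metabolising P450 of the mouse gut, was at 391, 366 and 409 FPKM in control and 81.4, 79 and 76.7 FPKM in HFD libraries, and the values within each group lay close together (log2 fold change −2.28 ± 0.24, adjusted p = 8.03e-05). Cyp2c55 was at 20.5, 13.7 and 24.3 and 2.66, 3.3 and 4.34 FPKM (log2 fold change −2.19 ± 0.45, adjusted p = 0.0124) and was lost without HFD replicates 1 and 2 and control replicates 1 and 3 (adjusted p from 0.0503 to 0.0599). Cyp4f14, which hydroxylates leukotriene B4, fell slightly. It was at 466, 472 and 488 FPKM in control and 391, 376 and 355 FPKM in HFD libraries (log2 fold change −0.35 ± 0.07, adjusted p = 0.00999). Por, the reductase that supplies electrons to all microsomal P450 enzymes, rose from 72.9, 62.8 and 72.7 to 147, 149 and 123 FPKM (log2 fold change 1.0 ± 0.16, adjusted p = 0.00273). Cyp2j6 and Cyp4f16 rose with Cyp4a10 (Cyp2j6: log2 fold change 1.08, adjusted p = 0.0114; Cyp4f16: log2 fold change 0.81, adjusted p = 0.0216). Cyp2j6 was lost without HFD replicate 2 and control replicates 1 and 3 (adjusted p = 0.0694, 0.0612 and 0.0603), and Cyp4f16 without each of the 6 libraries in turn (adjusted p from 0.0502 to 0.0851). Members of P450 families share sequence, so that their separate values are uncertain.

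Conjugating enzymes and carboxylesterases rose in 5 of 19 genes tested and fell in none (median 0.17), against 2.91% of all genes that rose. After quantile normalization, however, 3 rose and 2 fell, where 327 of all 11767 genes rose and 542 fell. The glucuronosyltransferase Ugt2b5 was at 6.8, 4.53 and 6.36 FPKM in control and 18.8, 21.5 and 18 FPKM in HFD libraries (log2 fold change 1.58 ± 0.27, adjusted p = 0.00352). The carboxylesterase Ces2b was at 0.776, 0.645 and 0.678 and 1.81, 2.56 and 2.18 FPKM (log2 fold change 0.90 ± 0.14, adjusted p = 0.00172). Both passed in all 6 fits. Ugt2b35, Ugt2b36 and Ces2c made up the 5, with log2 fold changes of 0.76, 0.65 and 0.95 (adjusted p = 0.0163, 0.0246 and 0.039). Ugt2b35 was lost without HFD replicates 1 and 2 and control replicate 3 (adjusted p = 0.0709, 0.0679 and 0.0695), Ugt2b36 without HFD replicates 2 and 3 and control replicates 2 and 3 (adjusted p from 0.0547 to 0.132) and Ces2c without each of the 6 libraries in turn (adjusted p from 0.0683 to 0.142).

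Targets of the oxidative stress factor NRF2 and of glutathione metabolism rose in 5 of 21 genes tested and fell in none, with a median of 0.39. Of all genes 2.91% rose. In this list 4 rose after quantile normalization and 2 after median ratio scaling. The quinone reductase Nqo1 was at 11.5, 11.7 and 9.46 FPKM in control and 19.2, 18.3 and 19.1 FPKM in HFD libraries (log2 fold change 0.75 ± 0.13, adjusted p = 0.00431). Pgd, an NADPH source of the pentose phosphate pathway, was at 66.9, 69.6 and 72.4 and 99.7, 95.9 and 89.2 FPKM (log2 fold change 0.44 ± 0.08, adjusted p = 0.00485), and at 83.7, 92.4 and 99.1 FPKM after TAI alone. Nqo1 and Pgd passed in all 6 fits. Gsta1, Gsta4 and Ugdh rose with log2 fold changes of 1.06, 0.84 and 0.52 (adjusted p = 0.0319, 0.0317 and 0.0184). Gsta1 was lost without HFD replicates 1, 2 and 3 and control replicates 1 and 2 (adjusted p from 0.0713 to 0.128), Gsta4 without HFD replicates 1 and 2 and control replicates 1, 2 and 3 (adjusted p from 0.06 to 0.122) and Ugdh without HFD replicates 1 and 2 and control replicates 2 and 3 (adjusted p from 0.0552 to 0.0778). Nfe2l2, the gene of NRF2 itself, was at 94.8, 91.8 and 97.9 and 104, 94.7 and 107 FPKM (adjusted p = 0.431).

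**Figure D3:**
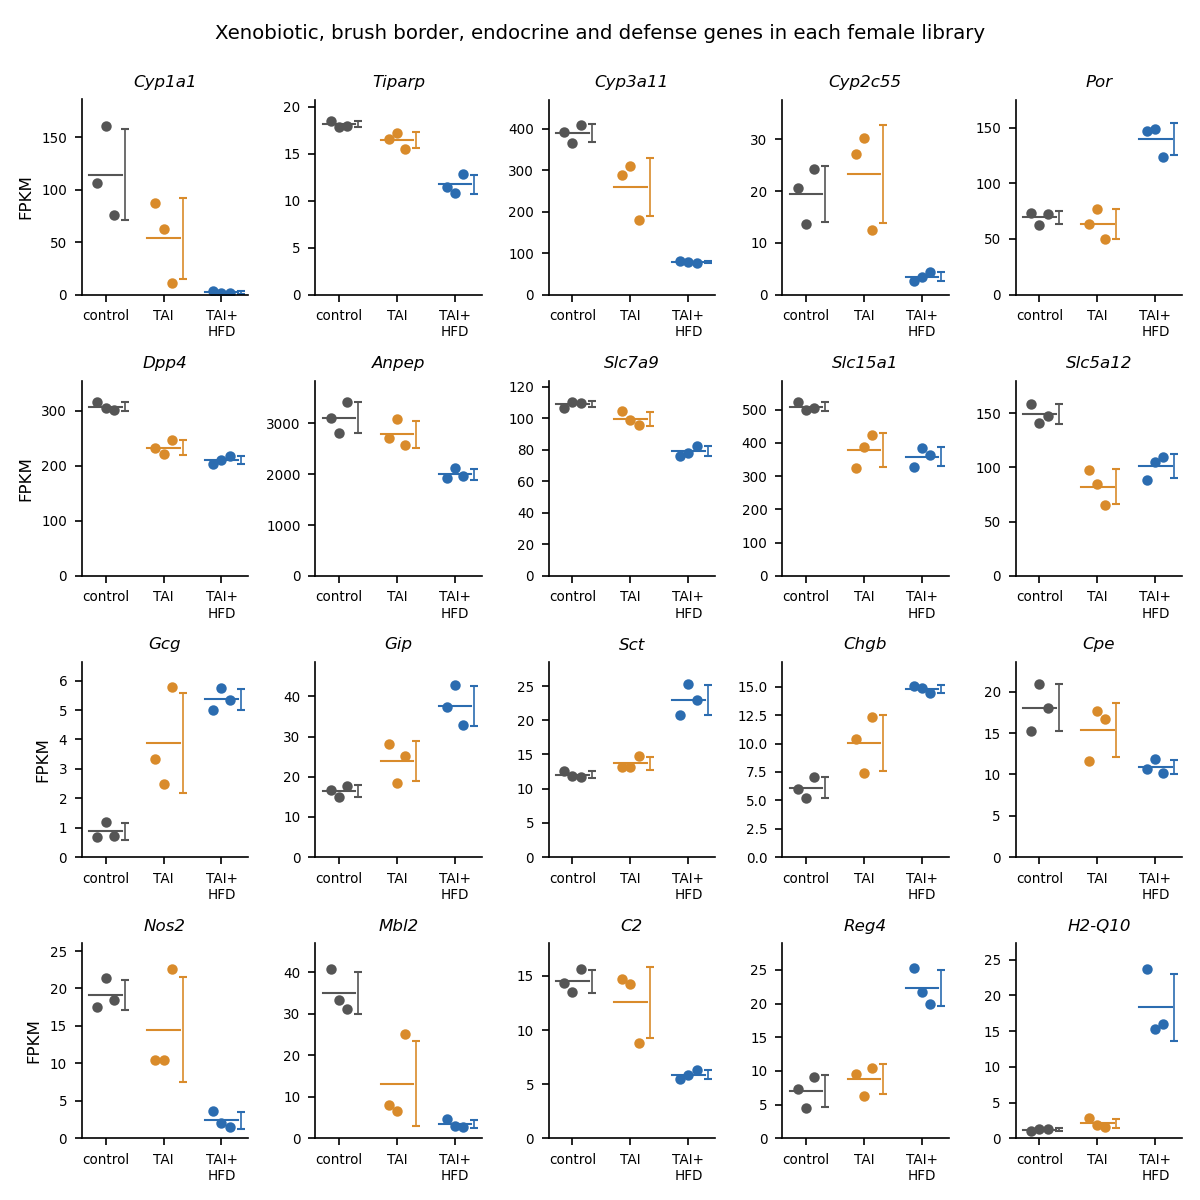
FPKM of 20 genes of detoxification, protein digestion, hormones and defense in each library of female control mice, females given TAI alone and females given TAI and HFD (points), with the mean of 3 libraries as a line and its SD as an error bar, each panel on its own axis from 0. Cyp1a1, Cyp3a11, Nos2 and Mbl2 are below the control values in all 3 HFD libraries, and Gip, Sct, Chgb, Reg4 and H2-Q10 are above them.

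Of 15 brush border hydrolases, 3 peptidases fell, an alkaline phosphatase rose and 11 did not pass (median −0.13). Of all genes 1.67% fell and 2.91% rose. Aminopeptidase N (Anpep) was at 3114, 2819 and 3416 FPKM in control and 1922, 2115 and 1957 FPKM in HFD libraries (log2 fold change −0.64 ± 0.12, adjusted p = 0.0058). Dipeptidyl peptidase 4 (Dpp4), which also cuts incretin hormones, was at 317, 306 and 302 and 204, 212 and 217 FPKM (log2 fold change −0.55 ± 0.08, adjusted p = 0.00126). The meprin subunit Mep1b was at 764, 707 and 737 and 505, 487 and 536 FPKM (log2 fold change −0.53 ± 0.08, adjusted p = 0.00191). These 3 passed in all 6 fits. The intestinal alkaline phosphatase Alpi, which is released with fat absorption, rose from 293, 312 and 316 to 515, 464 and 430.5 FPKM (log2 fold change 0.61 ± 0.14, adjusted p = 0.024), was lost without HFD replicates 1 and 2 and control replicates 1, 2 and 3 (adjusted p from 0.0515 to 0.105) and was not called after quantile normalization. Sucrase-isomaltase (Sis), the disaccharidase, was at 1414, 1089 and 1648 and 1905, 1650.3 and 1908 FPKM (adjusted p = 0.123).

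Of 13 amino acid and peptide carriers tested, 3 fell (1.67% of all genes did), none rose and 10 did not pass (median −0.28). After quantile normalization 6 fell, where 542 of all 11767 genes fell. Slc7a9, the light chain of the cystine carrier, was at 107, 110.1 and 110.0 FPKM in control and 76.4, 78.1 and 82.6 FPKM in HFD libraries (log2 fold change −0.46 ± 0.06, adjusted p = 0.000685). Slc7a15 was at 77.6, 78 and 75 and 44.8, 50.04 and 51.8 FPKM (log2 fold change −0.65 ± 0.11, adjusted p = 0.00361), and the peptide carrier PEPT1 (Slc15a1) at 524, 500.3 and 504 and 328, 386 and 363 FPKM (log2 fold change −0.51 ± 0.11, adjusted p = 0.0138). The call of Slc15a1 was lost without HFD replicate 1 and control replicate 1 (adjusted p = 0.072 and 0.0583), and the other 2 passed in all 6 fits. After TAI alone Slc15a1 was at 324, 387 and 425 FPKM and Dpp4 at 232, 221 and 247 FPKM, and neither differed past the threshold between HFD after TAI and TAI alone (Slc15a1: log2 fold change −0.07, adjusted p = 0.83; Dpp4: log2 fold change −0.15, adjusted p = 0.436). Slc7a9 was at 104, 99 and 95.9 FPKM after TAI alone and fell against it (log2 fold change −0.33, adjusted p = 0.00699).

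Among 13 carriers of carboxylates, phosphate and vitamins, 1 rose and 1 fell, where 2.91% of all genes rose and 1.67% fell. The phosphate carrier Slc20a1 rose from 4.94, 4.83 and 5.67 to 11.3, 12.9 and 11.4 FPKM (log2 fold change 1.07 ± 0.16, adjusted p = 0.00164) and passed in all 6 fits. The lactate carrier Slc5a12 fell from 159, 141 and 148 to 88.8, 105 and 109.5 FPKM (log2 fold change −0.56 ± 0.12, adjusted p = 0.014), and its call was lost without HFD replicate 1 and control replicate 1 (adjusted p = 0.0752 and 0.0672). In iron handling, 3 of 8 genes rose (2.91% of all genes did) and none fell, but 1 was lower after quantile normalization. The ferritin heavy chain Fth1 was at 621, 576 and 658 FPKM in control, 958, 891 and 811 FPKM after TAI alone and 1127, 991 and 888 FPKM in HFD libraries (log2 fold change 0.69 ± 0.11, adjusted p = 0.00191) and passed in all 6 fits. The ferritin light chain Ftl1 and the transferrin receptor Tfrc had log2 fold changes of 0.45 and 0.97 (adjusted p = 0.0221 and 0.0296), lost for Ftl1 without HFD replicates 1 and 2 and control replicates 1, 2 and 3 (adjusted p from 0.0508 to 0.108) and for Tfrc without HFD replicates 1, 2 and 3 and control replicates 1 and 3 (adjusted p from 0.0709 to 0.119).

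Genes of enteroendocrine cells, which release gut hormones, rose in part. Of 25 listed genes, 17 were tested, 7 rose, 1 fell, 9 did not pass and the median was 0.76. Of all genes 2.91% rose and 1.67% fell. Gip, the incretin of K cells, was at 16.6, 14.9 and 17.7 FPKM in control and 37.5, 42.8 and 32.9 FPKM in HFD libraries (log2 fold change 1.15 ± 0.21, adjusted p = 0.0053). Gcg, the precursor of the incretin GLP-1, was at 0.68, 1.2 and 0.725 FPKM in control, 3.33, 2.5 and 5.77 FPKM after TAI alone and 5.01, 5.73 and 5.34 FPKM in HFD libraries, so that it was high in both irradiated groups (log2 fold change 1.78 ± 0.27, adjusted p = 0.00165). Secretin (Sct) was at 12.6, 11.8 and 11.7 and 20.8, 25.2 and 22.9 FPKM (log2 fold change 0.87 ± 0.14, adjusted p = 0.00188), and the granule protein chromogranin B (Chgb) at 6.02, 5.24 and 7.08 and 15.1, 14.9 and 14.5 FPKM (log2 fold change 1.16 ± 0.19, adjusted p = 0.00211). These 4 passed in all 6 fits.

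Chga, Sst and Ghrl, which encode chromogranin A, somatostatin and ghrelin, rose by log2 fold changes of 0.83, 1.09 and 0.69 (adjusted p = 0.0139, 0.0172 and 0.016). Chga was lost without HFD replicate 2 (adjusted p = 0.0777), Sst without HFD replicates 1 and 2 and control replicate 3 (adjusted p = 0.0536, 0.0866 and 0.0768) and Ghrl without HFD replicates 1 and 3 and control replicate 3 (adjusted p = 0.0638, 0.0615 and 0.077). Cpe, the carboxypeptidase that trims hormone precursors, went the other way, from 15.3, 20.9 and 18 to 10.6, 11.8 and 10.1 FPKM (log2 fold change −0.68 ± 0.15, adjusted p = 0.0195), and was lost without HFD replicates 1 and 3 and control replicates 2 and 3 (adjusted p from 0.0622 to 0.0711). The hormone genes Cck, Nts, Pyy and Tac1 did not pass, with log2 fold changes of 0.76, 0.98, 1.01 and −0.42 (adjusted p = 0.0552, 0.0913, 0.197 and 0.177). The transcription factor Neurod1 was not tested, with 0.548, 0.381 and 0.342 FPKM in control and 0.836, 0.957 and 0.963 FPKM in HFD libraries. Against TAI alone 1 gene of the 17 rose (1.74% of all genes did) and none fell. It was Sct (log2 fold change 0.70, adjusted p = 0.00949), and Gip and Gcg did not pass (adjusted p = 0.119 and 0.499).

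Genes of the crypt base lay higher in the HFD libraries, with few calls, and their list medians lay above control after TAI alone too. Of 16 Paneth cell genes tested, 5 rose (2.91% of all genes did) and none fell, with a median of 3.09. All 16 had every HFD library above every control library, against 29.2% of all genes. The 5 were the α-defensins Defa17, Defa23, Defa24 and Defa30 and the lysozyme Lyz1. None passed in all 6 fits that left out 1 library. Lyz1 was at 31.1, 84 and 20.5 FPKM in control, 46.9, 219 and 1524 FPKM after TAI alone and 314, 837 and 359 FPKM in HFD libraries (log2 fold change 3.55 ± 0.88, adjusted p = 0.0306), and was lost without HFD replicates 1, 2 and 3 and control replicates 1 and 3 (adjusted p from 0.0659 to 0.143). Control replicate 2 was the highest control library and HFD replicate 2 the highest HFD library, as on the first principal component. Defa24 was at 32.3, 52.1 and 29.8 and 192, 449 and 201 FPKM (log2 fold change 2.78 ± 0.71, adjusted p = 0.0362) and was lost without each of the 6 libraries in turn (adjusted p from 0.0524 to 0.172). Defa17, Defa30 and Defa23 had log2 fold changes of 3.37, 3.62 and 3.30 (adjusted p = 0.0209, 0.0215 and 0.0269), and were lost without HFD replicates 1 and 2 and control replicates 1 and 3 (adjusted p from 0.0533 to 0.105), without HFD replicates 1 and 2 and control replicates 1 and 3 (adjusted p from 0.0512 to 0.11) and without HFD replicates 1, 2 and 3 and control replicates 1 and 3 (adjusted p from 0.0599 to 0.125). The α-defensin genes are near-identical copies, and their separate values are uncertain. The unnamed gene model Gm14851 (log2 fold change 2.88, adjusted p = 0.0408) and Defa31 (log2 fold change 3.22, adjusted p = 0.0313), which are not on the list, were among the 15 largest rises of all genes, and were lost without HFD replicates 1, 2 and 3 and control replicates 1 and 3 (adjusted p from 0.065 to 0.182) and without HFD replicates 1, 2 and 3 and control replicates 1 and 3 (adjusted p from 0.061 to 0.145).

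The largest value of these genes was in replicate 3 of the females given TAI alone, the library that stands apart, and that group's spread entered the fit. In a fit of the 9 female libraries 132 genes rose and 78 fell, and in a fit of the 6 compared libraries, without that group, 1480 rose and 445 fell. Stem cell and Wnt genes had no call in 18 tested, with a median of 0.59. Lgr5, the receptor that marks crypt stem cells, was at 0.373, 0.59 and 0.14 FPKM in control and 1.13, 1.68 and 1.33 FPKM in HFD libraries, with no overlap (log2 fold change 0.81, adjusted p = 0.0581). Of 36 cell cycle genes, 33 had all HFD libraries above all control libraries, against 29.2% of all genes. With a median of 0.76, 1 was called, where 2.91% of all genes rose. This was the mitotic cyclin Ccnb1, at 1.73, 1.61 and 0.901 and 4.72, 5.25 and 5.11 FPKM (log2 fold change 1.34, adjusted p = 0.035), which was lost without each of the 6 libraries in turn (adjusted p from 0.0574 to 0.141). Ribosomal protein genes were alike, with all HFD above all control libraries for 30 of 33, 1 called and a median of 0.73. Rps2 was at 112, 101 and 66.6 and 224, 267 and 203 FPKM (log2 fold change 1.33, adjusted p = 0.0163) and was lost without HFD replicates 1 and 2 and control replicate 3 (adjusted p = 0.0589, 0.0832 and 0.0841).

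In each of these lists replicate 2 had the highest level in the control group and in the HFD group. The order of HFD replicates 1 and 3 was not the same in all lists. Relative to the control mean, the median level of the Paneth list lay at −0.24, 0.80 and −0.63 in the control libraries and at 2.17, 3.91 and 2.91 in the HFD libraries on the log2(FPKM + 1) scale. That of the cell cycle list lay at −0.04, 0.28 and −0.24 and 0.74, 0.86 and 0.74, and that of the ribosomal list at −0.03, 0.30 and −0.24 and 0.66, 1.05 and 0.55. For the mitochondrial fatty acid oxidation list the values were 0.02, 0.00 and −0.01 in control and 0.52, 0.51 and 0.38 in HFD libraries, so that its control libraries spread less. In TAI alone against control the Paneth, stem cell and Wnt, cell cycle and ribosomal lists had medians of 2.58, 0.42, 0.47 and 0.39 (all genes 0.12). Replicate 3 was the highest of the libraries after TAI alone for each of them. In HFD after TAI against TAI alone the medians were 0.19, 0.14, 0.29 and 0.33 (all genes −0.01). There 1 stem cell and Wnt gene rose (1.74% of all genes did), and no gene of the other lists passed. Whether the crypt share of each tissue piece took part in these values was not tested.

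**Figure D4:**
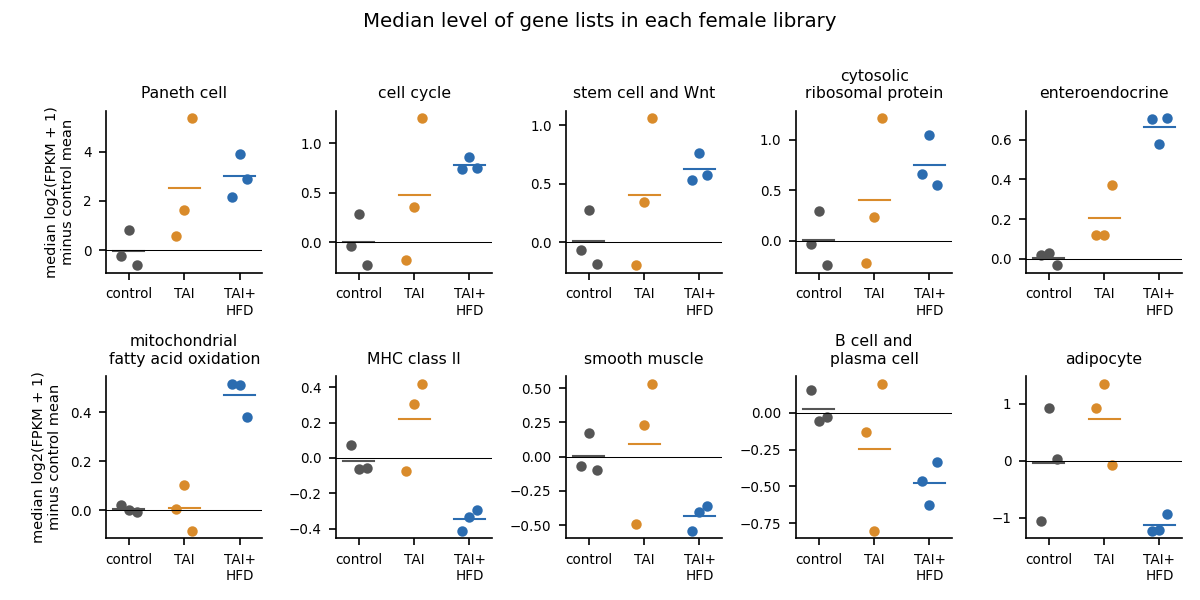
Median level of the members of 10 gene lists in each female library, relative to the mean of the 3 control libraries (vertical axis, log2(FPKM + 1) difference), for control, TAI alone and TAI with HFD (points). The Paneth cell list lies between −0.63 and 0.80 in control, 2.17 and 3.91 in HFD and 0.56 and 5.37 in TAI-alone libraries, highest in replicate 3 of TAI alone. Mitochondrial fatty acid oxidation is higher in the 3 HFD libraries than in the other female libraries.

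Epithelial defense genes moved in both directions. Of 18 epithelial defense genes tested, 3 rose and 1 fell (median −0.11), where 2.91% of all genes rose and 1.67% fell. Inducible nitric oxide synthase (Nos2) was at 17.6, 21.4 and 18.5 FPKM in control, 10.5, 10.4 and 22.6 FPKM after TAI alone and 3.65, 2.05 and 1.52 FPKM in HFD libraries (log2 fold change −2.61 ± 0.44, adjusted p = 0.00352). The lectin Reg4 rose from 7.39, 4.53 and 9.14 to 25.3, 21.8 and 19.9 FPKM (log2 fold change 1.58 ± 0.28, adjusted p = 0.00431). Nos2 and Reg4 passed in all 6 fits. Reg3a and Gsdmc4 rose with log2 fold changes of 0.56 and 1.29 (adjusted p = 0.0359 and 0.0418), lost for Reg3a without HFD replicates 1 and 2 and control replicates 1, 2 and 3 (adjusted p from 0.0572 to 0.186) and for Gsdmc4 without each of the 6 libraries in turn (adjusted p from 0.0577 to 0.181). The antibacterial lectin Reg3g was at 1047, 1666 and 716 and 742, 379.8 and 582 FPKM, with overlap, and the hydrogen peroxide source Duox2 at 8.96, 12.5 and 6.83 and 4.36, 4.0 and 4.01 FPKM, and neither passed against control (adjusted p = 0.0579 and 0.0711).

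Mbl2 and C2, which encode complement proteins, stood among the 15 largest decreases. Mannose-binding lectin 2 (Mbl2) was at 40.8, 33.3 and 31.1 FPKM in control, 8.03, 6.47 and 25 FPKM after TAI alone and 4.65, 3.08 and 2.71 FPKM in HFD libraries (log2 fold change −3.02 ± 0.40, adjusted p = 0.000595). Complement component C2 was at 14.4, 13.5 and 15.6 and 5.46, 5.86 and 6.31 FPKM (log2 fold change −1.17 ± 0.14, adjusted p = 0.000313). Both passed in all 6 fits. Caspase 4 (Casp4), a sensor of bacterial lipopolysaccharide chosen after its values were seen, was at 39.7, 38.4 and 31.4 and 18.9, 18 and 20.7 FPKM (log2 fold change −0.89 ± 0.12, adjusted p = 0.000799). The gene with the lowest adjusted p of all was H2-Q10, a secreted class I histocompatibility protein best known from liver, which rose from 1.07, 1.27 and 1.36 to 23.7, 15.3 and 15.9 FPKM and was at 2.82, 1.93 and 1.53 FPKM after TAI alone (log2 fold change 3.09 ± 0.18, adjusted p = 2.2e-07). Other class I genes did not follow. Among 18 genes of class I and the immunoproteasome none rose and H2-Q4 fell, where 1.67% of all genes fell. H2-Q4 was at 48, 57.3 and 53.8 and 31.6, 39.4 and 43.7 FPKM (log2 fold change −0.47, adjusted p = 0.0338). Its call was lost without HFD replicates 1 and 2 and control replicates 1, 2 and 3 (adjusted p from 0.0508 to 0.147). The H2-Q genes share long stretches of sequence, so that reads may be split between them.

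Class II histocompatibility genes had no call at the main threshold, but all 9 tested had every HFD library below every control library (10.8% of all genes), with a median of −0.35. After quantile normalization 3 fell, where 542 of all 11767 genes fell. H2-Ab1 was at 286, 245 and 285 FPKM in control and 203, 206 and 198 FPKM in HFD libraries (log2 fold change −0.42, adjusted p = 0.0825), and against TAI alone, where it was at 258, 330.3 and 343 FPKM, it fell (log2 fold change −0.60, adjusted p = 0.0205). Of 10 B cell and plasma cell markers none passed and 8 lay lower without overlap, with a median of −0.44. They summed to 195 to 348 FPKM in control and 149 to 241 FPKM in HFD libraries, most of it from the J chain (Jchain), at 326, 177 and 242 and 153, 141 and 228 FPKM. Their part in the values of the class II genes was not tested. The 18 T cell and the 13 macrophage markers tested had no call, with medians of 0.01 and 0.22, and none of the 26 interferon response genes passed (median −0.27).

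Smooth muscle markers lay lower in the HFD libraries. Of 12 tested, 11 had every HFD library below every control library (10.8% of all genes) and 1 was called (1.67% of all genes fell), with a median of −0.43. After quantile normalization 5 fell and after median ratio scaling 7, where 542 and 357 of all 11767 genes fell. The called gene was the myosin kinase Mylk, at 78.6, 83.7 and 83.8 and 62.6, 60.5 and 65.9 FPKM (log2 fold change −0.38, adjusted p = 0.0143), which was lost without HFD replicates 1 and 2 and control replicate 3 (adjusted p = 0.0593, 0.0774 and 0.059). Actin alpha 2 (Acta2) was at 79.3, 94.2 and 67.8 and 49.98, 54.4 and 57.6 FPKM (adjusted p = 0.115). The markers summed to 481 to 583 FPKM in control and 349 to 399.6 FPKM in HFD libraries. Their part in the other values was not tested.

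**Figure D5:**
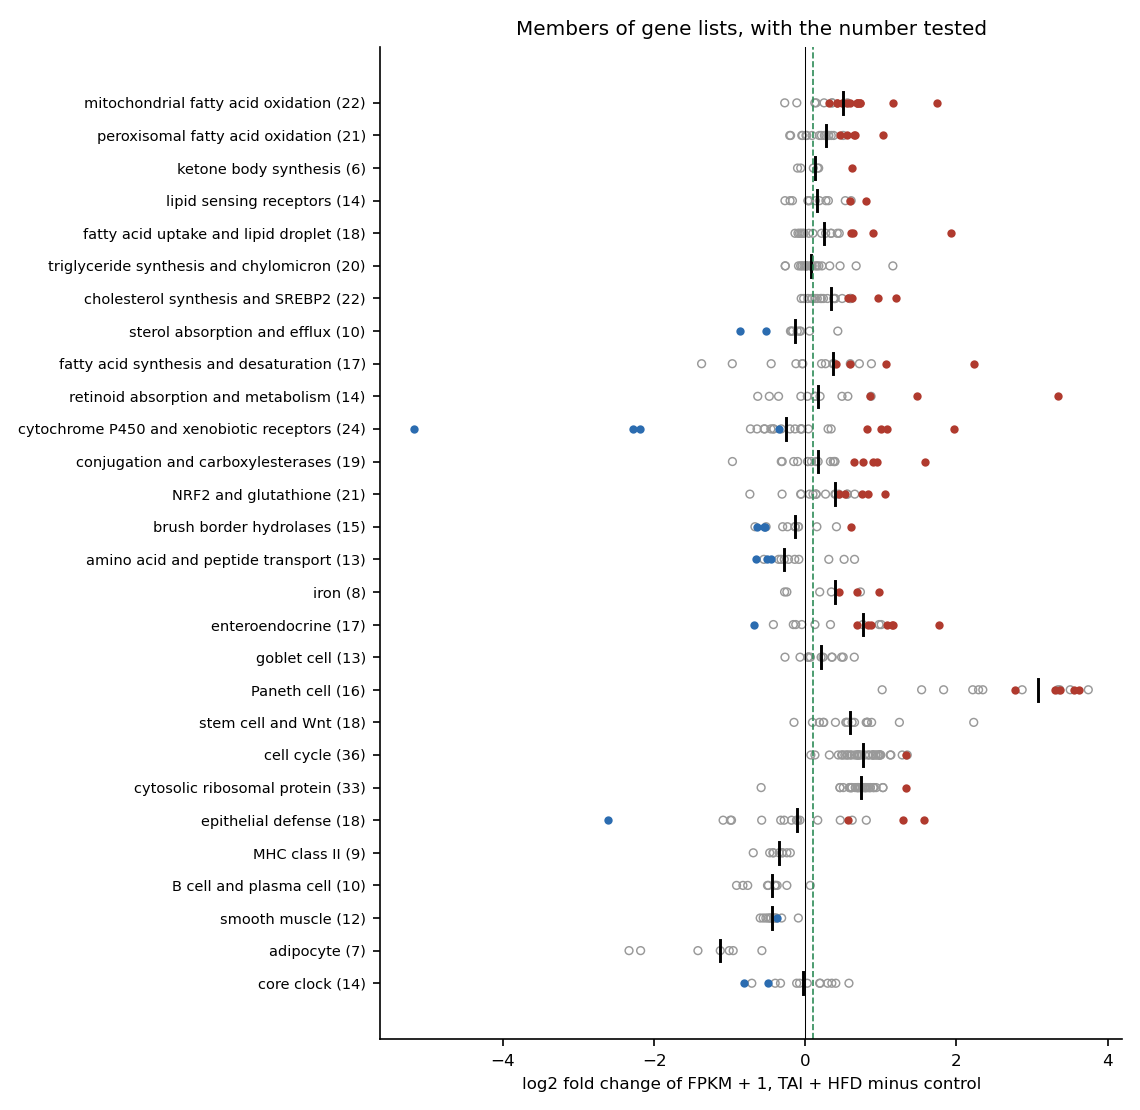
Log2 fold change of each tested member of 28 gene lists in the HFD libraries against the control libraries (horizontal axis), with red and blue points for members higher and lower past the threshold, open grey points for the others, a black bar for the list's median and a green dashed line for the median of all genes (0.10). The number of members tested stands in parentheses, and mitochondrial fatty acid oxidation holds 14 red points of 22.

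Genes of the circadian clock were mostly without a call. Of 14 core clock genes tested, 2 fell and none rose (median −0.02), against 1.67% of all genes that fell. After quantile normalization 4 fell, where 542 of all 11767 genes fell. The repressor Cry1 was at 7.49, 9.79 and 8.25 FPKM in control, 5.91, 6.12 and 5.63 FPKM after TAI alone and 5.55, 5.49 and 6.08 FPKM in HFD libraries, so that it was lower in both irradiated groups (log2 fold change −0.50 ± 0.10, adjusted p = 0.0127). The activator Npas2 was at 19.3, 21.6 and 13.9 and 10.6, 8.5 and 10.3 FPKM (log2 fold change −0.82 ± 0.18, adjusted p = 0.0196). Cry1 was lost without HFD replicates 1 and 2 (adjusted p = 0.0593 and 0.0655), and Npas2 without HFD replicates 1 and 2 and control replicates 1 and 2 (adjusted p from 0.0512 to 0.102). The Cry1 promoter is shown for its E-box, the motif bound by the clock activators, in capitals 60 bases before the start (RefSeq, GRCm38.p6, chr10:85185005-85185304, minus strand).
Cry1: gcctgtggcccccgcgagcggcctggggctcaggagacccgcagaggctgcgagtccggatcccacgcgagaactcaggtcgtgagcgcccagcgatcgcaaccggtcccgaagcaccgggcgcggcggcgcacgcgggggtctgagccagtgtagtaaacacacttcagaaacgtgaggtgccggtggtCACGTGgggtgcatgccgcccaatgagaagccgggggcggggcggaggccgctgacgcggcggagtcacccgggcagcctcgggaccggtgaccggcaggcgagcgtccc

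Of 6 tested genes that the study names and that are described here, 1 passed against unirradiated control (4.59% of all genes did). Against TAI alone 2 rose and none fell, where 1.74% of all genes rose and 1.42% fell. The study reports expression changes with HFD in irradiated females for Glut1 (Slc2a1), MDR1, Pgk1 and Nrf2. It measured Glut1 by quantitative PCR, and IL-6, TNFα and LCN2 as protein, LCN2 in fecal pellets. The values against unirradiated control are thus of another comparison, and at least for Glut1 and the last 3 of another measure. Abcb1b, a gene of the multidrug pump P-glycoprotein, rose from 2.45, 2.21 and 2.38 to 3.34, 4.02 and 3.13 FPKM (log2 fold change 0.42 ± 0.11, adjusted p = 0.0443), was lost without each of the 6 libraries in turn (adjusted p from 0.0597 to 0.215) and was not called after quantile normalization. Its more abundant sister gene Abcb1a was at 105, 86.8 and 98.1 FPKM in control, 69.4, 85.5 and 58.5 FPKM after TAI alone and 126, 163 and 122 FPKM in HFD libraries. It did not pass against control (log2 fold change 0.49, adjusted p = 0.0751) and rose against TAI alone (log2 fold change 0.94, adjusted p = 0.00237). The glycolytic enzyme Pgk1 (log2 fold change 0.27, adjusted p = 0.0984), the glucose carrier Slc2a1 (log2 fold change 0.25, adjusted p = 0.2) and the cytokine Tnf (log2 fold change −0.13, adjusted p = 0.699) did not pass, as was so for Nfe2l2 above. With the 6 compared libraries alone and with each group weighted by its own variance, Abcb1a (adjusted p = 0.0382 and 0.0201) and Pgk1 (adjusted p = 0.0236 and 0.0243) passed. Il6 and Lcn2 were under the limit for testing, at no more than 0.0352 FPKM for Il6 and 0.461 FPKM for Lcn2 in the 6 libraries.

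Further genes stood among the 15 largest changes in each direction. Tm4sf4, a tetraspan membrane protein of intestine and liver, rose from 26.3, 40.7 and 30.4 to 129.7, 170.2 and 112 FPKM and was at 27.8, 25.1 and 18.8 FPKM after TAI alone (log2 fold change 2.05 ± 0.22, adjusted p = 8.18e-05). Kcne3, a potassium channel subunit for crypt chloride secretion, rose from 2.6, 4.45 and 1.97 to 9.75, 14.7 and 14.7 FPKM (log2 fold change 1.84, adjusted p = 0.0356) and was lost without HFD replicates 1, 2 and 3 and control replicates 1 and 3 (adjusted p from 0.0709 to 0.137). Among the decreases, Pfkfb3, which makes the activator of phosphofructokinase, fell from 33.4, 35.6 and 22.7 to 11.1, 7.29 and 6.27 FPKM and was at 16.1, 14.3 and 11.8 FPKM after TAI alone (log2 fold change −1.78 ± 0.22, adjusted p = 0.000312). Of 15 glycolysis genes it was the one that fell, and the phosphofructokinase Pfkl the one that rose, where 1.67% of all genes fell and 2.91% rose. Pfkl went from 4.83, 5.31 and 4.98 to 10.2, 9.98 and 8.28 FPKM (log2 fold change 0.79, adjusted p = 0.000876). Apol7a, an apolipoprotein L gene, fell from 92.5, 106 and 91.7 to 36.1, 29.6 and 35.9 FPKM and lay at 50.2, 44.6 and 37.9 FPKM after TAI alone (log2 fold change −1.49 ± 0.13, adjusted p = 2.61e-05). Pfkfb3 and Apol7a were past the threshold in TAI alone against control too (Pfkfb3: log2 fold change −1.05, adjusted p = 0.0462; Apol7a: log2 fold change −1.12, adjusted p = 0.00254).

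Akr1b7, an aldose reductase relative, fell from 158, 105 and 204 to 66.5, 45.8 and 55.3 FPKM (log2 fold change −1.43 ± 0.24, adjusted p = 0.00297), and Tppp, a tubulin polymerization protein, from 6.89, 9.34 and 7.62 to 2.14, 1.97 and 2.18 FPKM (log2 fold change −1.52 ± 0.23, adjusted p = 0.00155). Ypel2 fell from 8.26, 12.3 and 4.79 to 3.41, 3.11 and 3.03 FPKM (log2 fold change −1.10 ± 0.21, adjusted p = 0.00843). These 3 passed in all 6 fits. The other decreases of the top 15 were the intestinal inflammasome gene Nlrp9b, the sialic acid lyase Npl, Tppp3 and the immediate early gene Fosb, with log2 fold changes of −1.20, −1.45, −1.19 and −1.08 (adjusted p = 0.0121, 0.0331, 0.0216 and 0.0187). Nlrp9b was lost without HFD replicates 1 and 2 (adjusted p = 0.0512 and 0.0694), Npl without HFD replicates 1, 2 and 3 and control replicates 1 and 2 (adjusted p from 0.065 to 0.137), Tppp3 without HFD replicates 1, 2 and 3 and control replicates 2 and 3 (adjusted p from 0.0592 to 0.092) and Fosb without HFD replicates 1 and 2 and control replicates 1 and 3 (adjusted p from 0.0661 to 0.102).

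The comparison was set beside others of the series. In females given TAI alone against control 49 genes rose (0.416%) and 40 fell (0.340%), in HFD after TAI against TAI alone 205 rose (1.74%) and 167 fell (1.42%), and these share libraries with each other and with the comparison described here. The most alike comparison with separate libraries was that of male mice given simvastatin after TAI against male control mice, in which 323 rose (2.74%) and 309 fell (2.63%). The change in HFD-fed females differed from the change in simvastatin-treated males in 270 genes upward (2.29%) and 181 downward (1.54%), by a test of the difference itself. Sex and treatment differ together there and cannot be told apart. The difference of the log2 fold changes was 3.08 for H2-Q10 (adjusted p = 3.3e-05), 1.62 for Retsat (adjusted p = 0.00049) and 2.17 for Tm4sf4 (adjusted p = 0.00141) on the upward side, and −5.14 for Cyp1a1 (adjusted p = 0.0185), −2.04 for Cyp3a11 (adjusted p = 0.00362) and −2.13 for Akr1b7 (adjusted p = 0.00263) on the downward side. It did not pass for Casp4, for which it was −0.14 (adjusted p = 0.628).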

How the data were processed

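Messenger RNA of mouse small intestine was measured in 18 libraries, 3 in each of 6 groups taken from the sample labels. The deposited table held FPKM per transcript as computed by the authors, and no further scaling was applied for the main results. Tools in the submitters' processing notes were Bowtie2 2.2.8, HISAT2, Cuffdiff 2.1.1 and StringTie 1.3.1. The genome build, the strand handling and the read totals are not given in the sources used here. FPKM hold no counts, so no count test and no counting interval was made.

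Summing 55869 transcripts by gene symbol gave 21928 symbols, and 11767 reached 1 FPKM in 3 or more libraries and entered the test. In limma 3.58.1 (R 4.3.3), log2(FPKM + 1) of the 18 libraries was modelled with a mean for each group, variances were moderated with an intensity trend (12 residual degrees of freedom), and p was adjusted by the Benjamini-Hochberg method over every gene tested at 0.05. The fit was tested on simulated data. Lists were described by counts and medians, without a test. A few genes are not reported here and were left out of the lists.

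The comparison, its members and the gene lists were chosen with earlier results of these data known. Named genes were the 15 largest changes in each direction among genes past the threshold whose groups did not overlap, up to 6 members with the smallest p in a described list, genes named in the paper and markers. Others are said to be chosen after their values were seen. Promoters were read from RefSeq (GRCm38.p6). Alternatives covered pseudocounts, filters, scalings, variance models, library sets, thresholds, a replicate block, a test per transcript and fits without 1 library. Python 3.11.15 and matplotlib 3.10.9 were used.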

Additional observations from a re-analysis of the deposited data

How the results depend on the processing

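The count of 540 genes, 343 higher and 197 lower, moved most with the spread that was used. It was 1925 (1480 higher, 445 lower) with the 6 compared libraries alone, 2377 (1782 and 595) where each group had a weight from its own variance and 210 (132 and 78) with the 9 female libraries. Quantile normalization gave 869 (327 and 542) and median ratio scaling 303 higher and 357 lower. Transcripts counted by symbol gave 253 (146 and 107), and a log2 fold change of at least 1 left 80 (63 and 17). With other pseudocounts, filters or no trend the counts stayed within 1.5 times. Leaving out 1 library gave 183 to 422 genes, 108 to 293 higher and 72 to 129 lower, with the fewest without HFD replicate 2 and the most without control replicate 2. None of 107 named genes past the threshold changed direction in the fits per gene, of which the filter of 5 FPKM gave values for 97. The test per transcript was not followed for named genes. All 107 stayed past it with the 6 compared libraries, 55 with the 9 female libraries, 92 after quantile normalization, 90 after median ratio scaling, and 59 to 83 without 1 library. The log2 fold change of Nfe2l2, which did not pass, was at −0.0064 after median ratio scaling. Of 59 list medians, 24 moved by more than the spread between replicates after quantile normalization and 17 after median ratio scaling.

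The labels give both groups the same replicate numbers. The deviations of same-numbered libraries from their group means correlated across genes at 0.134, 0.255 and 0.0141. Those of differently numbered libraries correlated at −0.254 to 0.173. These values do not settle whether the samples are paired, and the main fit did not take the numbers to pair them. A fit with the replicate block gave 454 genes, 291 higher and 163 lower. Read totals are unknown, which limits what can be said of low values, and 3048 genes had an unadjusted p below 0.05.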

Other observations

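Other cell types and gene groups had few calls in the HFD libraries. None of the 13 goblet cell genes and none of the 8 tuft cell genes tested passed the threshold, with medians of 0.21 and 0.11 against 0.10 for all genes. Of 25 nuclear genes of the respiratory chain none passed (median 0.20), although 19 had every HFD library above every control library (29.2% of all genes), and of 13 mitochondrially encoded genes none passed either (median −0.18). Mitochondrially encoded genes took 16.2% to 21.1% of all FPKM in control and 14.3% to 17.1% in HFD libraries. None of 21 p53 target genes passed (median 0.06). Of 15 tight junction genes, 1 rose (2.91% of all genes did), the pore-forming claudin Cldn2, which crypts express most. It was at 1.65, 3.86 and 1.39 FPKM in control, 2.66, 5.44 and 13 FPKM after TAI alone and 9.76, 7.29 and 6.64 FPKM in HFD libraries (log2 fold change 1.49, adjusted p = 0.0481), and was lost without HFD replicates 1, 2 and 3 and control replicates 1 and 3 (adjusted p from 0.0849 to 0.177). The metal-binding metallothionein Mt1 was at 25, 23.5 and 20.01 FPKM in control, 29.7, 93.5 and 134 FPKM after TAI alone and 103, 92.6 and 49.3 FPKM in HFD libraries (log2 fold change 1.73, adjusted p = 0.0317), and was lost without HFD replicates 1 and 2 and control replicates 1, 2 and 3 (adjusted p from 0.0604 to 0.131). Of 10 genes of sugar uptake and fructolysis, 1 rose, against 2.91% of all genes. This was the gluconeogenic phosphatase Fbp1, at 18.2, 11.7 and 19.9 and 47.7, 24.7 and 30.7 FPKM (log2 fold change 0.99, adjusted p = 0.0456). Its call was lost without each of the 6 libraries in turn (adjusted p from 0.0523 to 0.171).

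A few single genes, chosen after their values were seen, passed in all 6 fits that left out 1 library. Aldh1l1, a folate enzyme, was at 53.6, 52.1 and 57.4 FPKM in control, 52.2, 52.7 and 51.7 FPKM after TAI alone and 33.5, 33.1 and 33.4 FPKM in HFD libraries (log2 fold change −0.69, adjusted p = 8.36e-06). The control and TAI libraries lay together and the HFD libraries below them. Pank3, which starts the synthesis of coenzyme A, was at 82.3, 77.4 and 78.6, 57.1, 64.9 and 55.1 and 143, 137 and 133 FPKM in the same order of groups (log2 fold change 0.78, adjusted p = 0.000398). Dbi, the acyl-CoA binding protein, was at 236, 222 and 217, 227, 251 and 324 and 455, 449 and 392 FPKM (log2 fold change 0.93, adjusted p = 0.000742). Mfsd2a, a carrier of lysophosphatidylcholine with long unsaturated chains, was at 14.8, 14.3 and 14.2, 18.8, 16.6 and 11.6 and 47.4, 27.4 and 33.9 FPKM (log2 fold change 1.24, adjusted p = 0.00145), with HFD replicate 1 the highest as for Bco1 and Scarb1. Slc6a3, the dopamine carrier of neurons, was at 0.538, 0.716 and 0.423, 0.478, 0.612 and 0.276 and 3.24, 2.77 and 2.43 FPKM (log2 fold change 1.29, adjusted p = 3.83e-05). Among the female libraries only the HFD libraries reached the 1 FPKM of the filter for it. Its place in the test may thus rest on the group where it was high.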
